A study of Homo sapiens with 12 samples.

Results

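The B class of Eph receptors and their ephrin-B ligands was followed in human neural progenitor cells (hNPCs) in which miR-10a or miR-10b was switched on. All 8 genes of the class named in the series were taken, 5 receptors (EPHB1, EPHB2, EPHB3, EPHB4 and EPHB6) and 3 ligands (EFNB1, EFNB2 and EFNB3), of 25718 genes in the files. Membership of the family was the rule, and no measured value enters it. The family itself was chosen with earlier results of these data known. A mean above 10 counts over the 12 samples, the limit for testing, was reached by 7 of the 8 and by 11451 genes in all. With miR-10b, doxycycline-treated samples had more EFNB3 and less EFNB2 RNA than controls, by 13.6% and 7.8%. With miR-10a none of the 7 genes passed the test, and the difference between the effects of the vectors passed for none of the 7 either. The largest called differences within the family lay between the untreated cultures of the vectors, in EFNB1 and EPHB1.

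Eph receptors are receptor tyrosine kinases that bind ephrins on neighbouring cells. Ephrins of the B class span the membrane and signal into their own cell when they are bound, so that both cells of a contact respond, usually by repelling or sorting from each other. In the developing nervous system the B class is known for keeping cells of neighbouring regions apart, for guiding axons and for work at synapses.

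All samples came from the established human embryonic stem cell line H9 and carried a lentiviral vector with a Tet-regulated miR-10a-GFP or miR-10b-GFP cassette, added at a multiplicity of infection of 50. They had 14 days of neural induction towards ventral midbrain (MB), with noggin, SB431542, SHH at 200 ng/ml and CT99021, a GSK3 inhibitor. In the paper's protocol these factors were in the medium from the start and were withdrawn before day 11. The miR-10a doxycycline and miR-10b doxycycline groups received doxycycline from day 11 to day 14. The miR-10a control and miR-10b control groups carried the same vectors without doxycycline. Each of the 4 groups had 3 samples. An effect of doxycycline itself cannot be told apart from that of miR-10, since none of the 12 samples carried a vector without a miR-10. Nothing in the labels says that replicates were separate cultures, so p-values measure the spread between these samples, which may be technical.

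Total counts lay between 10545487 and 14165426, and for each vector the 3 control totals exceeded the 3 doxycycline totals. The precursor transcript MIR10A was between 711.4 and 731.2 CPM (the count scaled to the sample's total count) in the miR-10a doxycycline group and at most 1.37 CPM in the miR-10a controls. The precursor MIR10B was between 2540.9 and 2661.9 CPM in the miR-10b doxycycline group and at most 4.45 CPM in its controls. Replicate 2 of the miR-10b doxycycline group stood apart from its replicates: the chi-square of counts per degree of freedom was 3.17 and 4.11 in its 2 pairs and between 1.22 and 1.93 in the other 10 pairs. Of the markers of the intended cells, 8 of 9 neural progenitor genes and 6 of 8 floor plate genes passed the count limit, and LMX1B was at 0 in all samples. No neural crest marker of 6 passed it, the pluripotency gene NANOG was at 0, and the hindbrain gene EGR2 was at 0. The summed level of 6 endothelial markers, genes of a cell type in which EFNB2 and EPHB4 are well known, was between 4.99 and 7.29 CPM over all 12 samples.

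A miRNA recognises RNAs mainly through its seed, bases 2 to 8 of the mature strand, and miR-10a and miR-10b share that seed. The mature sequence below, from RefSeq (GRCh38.p14, chr17:48579904-48579926, minus strand), is shown because every match that follows is read from it, and capitals mark the seed.
hsa-miR-10a-5p: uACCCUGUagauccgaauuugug

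The longest 3′UTR of each gene in GENCODE 44 (coordinates of GRCh37, the build that the files call hg19) was searched on the transcribed strand for 4 matches that do not overlap in the count: the 8mer ACAGGGTA, the 7mer-m8 ACAGGGT, the 7mer-A1 CAGGGTA and the 6mer CAGGGT, each counted only where no longer match covers it. Of 9259 tested genes with an annotated 3′UTR, 2.6% held an 8mer, 14.3% a 7mer-m8, 7.0% a 7mer-A1 and 29.4% a 6mer, and 21.1% held an 8mer or a 7mer. None of the 7 measured genes held an 8mer or a 7mer. EPHB1, EPHB3, EFNB1 and EFNB2 held 1 6mer each, and EPHB4, EPHB6 and EFNB3 held no match. The longest EPHB4 3′UTR, of 2325 bases, belongs to a transcript of 3737 bases, whereas the counted EPHB4 transcript has 4351 bases. The stretch searched for EPHB4 may therefore not be the 3′UTR of the counted transcript. The sites of EPHB1, EFNB1 and EFNB2 are printed with 11 bases on either side, as DNA in the direction of the transcript, because they are among the closest matches to the seed in any measured gene of the family, and capitals mark the 6mer.
EPHB1 (chr3:134978003-134978008, plus strand): gggaaaaggacCAGGGTcaagggggacc
EFNB1 (chrX:68061481-68061486, plus strand): aaacagaggccCAGGGTggagacctaag
EFNB2 (chr13:107144007-107144012, minus strand): tgccagggctgCAGGGTcggtactgatg

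EPHB2, the only gene of the family with longer matches, was also the only one without a measurement. Its longest annotated 3′UTR (chr1, GRCh37) has 7930 bases and held 1 8mer, 2 7mer-m8, 4 7mer-A1 and 3 6mer matches. A long 3′UTR holds more matches of any kind: of 347 3′UTRs within 20% of that length, 58.5% held an 8mer or a 7mer. The 8mer lies 3884 bases into the 3′UTR and 6989 bases into a transcript of 11035 bases, whereas the EPHB2 transcripts of the count files, NM_004442 and NM_017449, are 4869 and 4866 bases long. It is printed with capitals on the 8mer.
EPHB2 (chr1:23243947-23243954, plus strand): gcattcaaaagACAGGGTAccacatgatgc

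**Figure D1:**
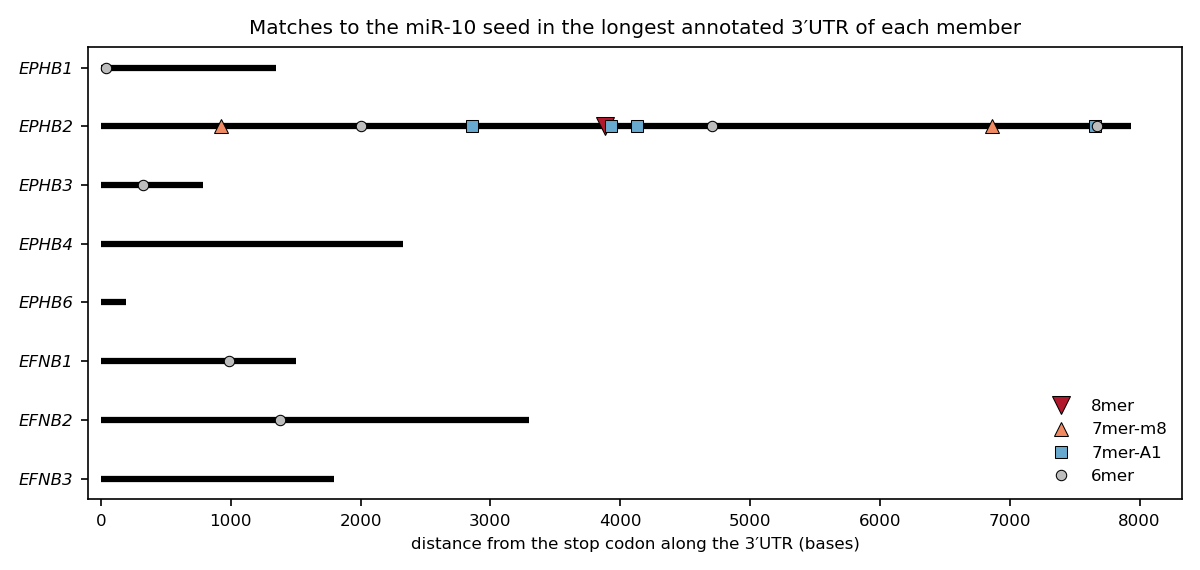
Position of each match to the miR-10 seed along the longest annotated 3′UTR of the 8 genes, in bases from the stop codon (x axis), with 1 bar per gene and 1 symbol per match type. EPHB2, with 7930 bases, carries 10 matches, 4 genes carry a single 6mer, and EPHB4, EPHB6 and EFNB3 carry none.

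For EPHB2 both transcripts had 0 counts in all 12 samples. Reads that several transcripts share appear to have been left out of the counting, since genes with a single transcript held 92.84% of all counts. A count of 0 allows up to 3 counts, which is 0.212 to 0.284 CPM in these samples, but this bounds only reads assigned to an EPHB2 transcript. It therefore says nothing about whether the receptor was expressed, and no comparison could be made. EPHB6, a receptor whose kinase domain is inactive, was touched in the same way: counts were on 1 of its 4 transcripts, NM_001280794, with 41 to 75 counts per sample. The other 6 genes have 1 transcript each, with between 982 and 4987 counts per sample.

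Levels between genes were compared per length, as RPKM (the CPM per kilobase of transcript). Over the 12 samples EFNB2 was at 79.3 ± 2.97 RPKM (SD, n = 12) and EFNB3 at 77.5 ± 7.39, higher than 92.4% and 92.1% of tested genes. Both have 1 transcript, whereas genes with several transcripts may have lost their shared reads, so these shares may be too high. EPHB4 was at 52.9 ± 1.82 RPKM and EFNB1 at 52.7 ± 5.12. EPHB1 was at 22.6 ± 2.03 RPKM and EPHB3 at 21.9 ± 1.11. EPHB6 was at 1.09 ± 0.178 RPKM, a figure that holds only what was assigned to 1 of its 4 transcripts. The order fell into steps: EFNB2 and EFNB3 overlapped, as did EPHB4 and EFNB1, and EPHB1 and EPHB3, whereas between these pairs, and between EPHB3 and EPHB6, the ranges over 12 samples were apart. Within a pair the order depended on the group. EFNB2 led EFNB3 in 9 of 12 samples, and by group mean EFNB3 led only in the miR-10b doxycycline group. EFNB1 was above EPHB4 by mean in both miR-10a groups and below it in both miR-10b groups, and EPHB1 was likewise above EPHB3 in the miR-10a groups and below it in the miR-10b groups.

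Summed over the family, ligand RNA exceeded that of the measured receptors in every group. The 3 ligands together were at 206.3 ± 0.643 RPKM (SD, n = 3) in the miR-10a control, 209.4 ± 1.53 in the miR-10a doxycycline, 207.9 ± 4.07 in the miR-10b control and 214.2 ± 5.81 in the miR-10b doxycycline group. The 4 measured receptors together were at 98.8 ± 0.252, 101.4 ± 1.40, 94.7 ± 3.16 and 99.1 ± 1.72 RPKM in the same order. The receptor sum lacks EPHB2.

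**Figure D2:**
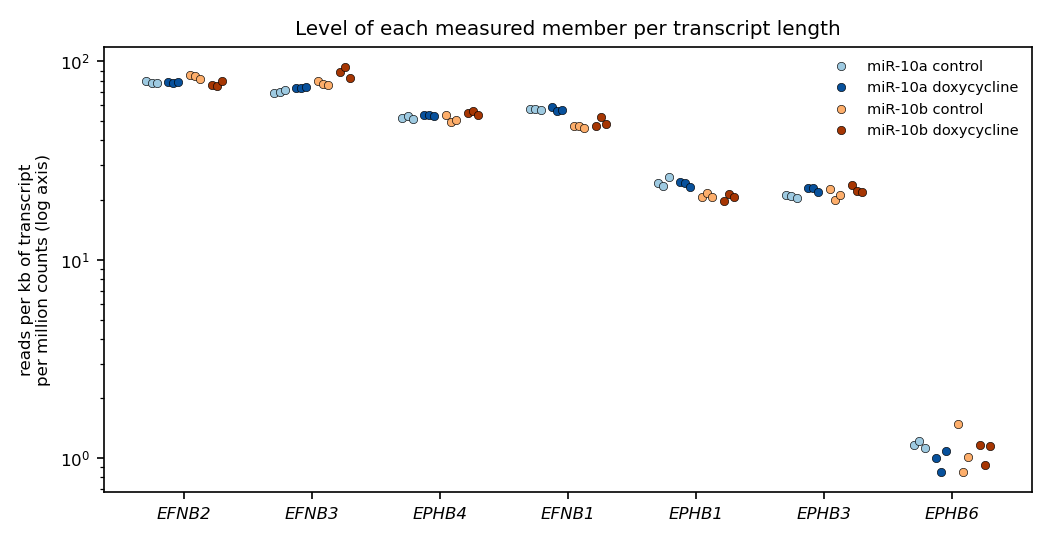
Level of the 7 measured genes in RPKM, the CPM per kilobase of transcript (log axis), 1 point per sample, coloured by group. The points form steps, with EFNB2 and EFNB3 between 68.98 and 93.5 at the top and EPHB6 between 0.850 and 1.49 at the bottom.

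EFNB3, a ligand known as a midline barrier to growing axons in the spinal cord and brain stem, had the smallest adjusted p of the family in response to doxycycline. In the miR-10b doxycycline group it was at 284.1, 300.9 and 265.8 CPM, and in the miR-10b controls at 256.2, 246.5 and 246.3 CPM. Every doxycycline sample lay above every control, with replicate 2, the library that stood apart, the highest. With miR-10b EFNB3 rose by 0.18 on the log2 scale (SE 0.04, adjusted p = 0.0005, edgeR quasi-likelihood test), and it passed the test in all 19 alternatives, with values from 0.14 to 0.23. Without that library the difference was 0.14 (adjusted p = 0.0036).

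With miR-10a the EFNB3 values were 235.4, 237.7 and 239.5 CPM with doxycycline and 222.05, 226.4 and 231.7 CPM in the controls. The groups did not overlap, but the gap was small, and the difference of 0.07 on the log2 scale (SE 0.04, 95% interval -0.01 to 0.15) did not pass the test (adjusted p = 0.541). Averaged over both vectors EFNB3 rose by 0.13 (SE 0.03, adjusted p = 0.00098). The effect with miR-10b exceeded that with miR-10a by 0.12 (SE 0.05), which did not pass the test (adjusted p = 0.326), so that the effects were not shown to differ.

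EFNB2, a ligand known for artery identity and for sorting of cells in the hindbrain, moved the other way with miR-10b. It was at 332.6, 329.9 and 349.9 CPM with doxycycline and at 372.6, 369.4 and 356.5 CPM in the controls. The groups did not overlap, and the nearest samples, both replicate 3, were close. With miR-10b EFNB2 fell by 0.12 on the log2 scale (SE 0.03, adjusted p = 0.011). It passed in 16 of 19 alternatives, with values from -0.145 to -0.102 over all 19. The other 3 each left out a sample and narrowly missed the threshold. Without doxycycline replicate 1 the difference was -0.11 (adjusted p = 0.052), and without control replicate 1 it was -0.10 (adjusted p = 0.051). Without control replicate 2 it was -0.11 (adjusted p = 0.05 when rounded, above the threshold).

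With miR-10a EFNB2 was at 344.9, 340.8 and 345.2 CPM with doxycycline and 350.4, 341.7 and 340.7 CPM without. These 6 values lie within a narrow band, and the difference was -0.0026 on the log2 scale with a 95% interval from -0.07 to 0.06. The miR-10b doxycycline samples thus had levels from just below to within the range of the miR-10a samples, and the miR-10b controls lay above all other samples of the series. The effects of the vectors differed by -0.12 (SE 0.05, adjusted p = 0.238), which did not pass the test. Averaged over both vectors the difference was -0.06 (adjusted p = 0.08). It passed under TMM factors (adjusted p = 0.033), under DESeq2 (0.02) and without replicate 3 of the miR-10b doxycycline group (0.028).

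EFNB1, the X-linked ligand whose loss causes craniofrontonasal syndrome, showed no call with either vector. With miR-10b it was at 157.1, 173.9 and 160.2 CPM with doxycycline and at 157.6, 157.7 and 153.0 CPM in the controls. The groups overlapped, with doxycycline replicate 1 among the controls and replicate 2 the highest of the 6. The difference was 0.07 (SE 0.04, adjusted p = 0.257), and 0.02 without replicate 2. With miR-10a the difference was -0.004 on the log2 scale (95% interval -0.08 to 0.07).

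**Figure D3:**
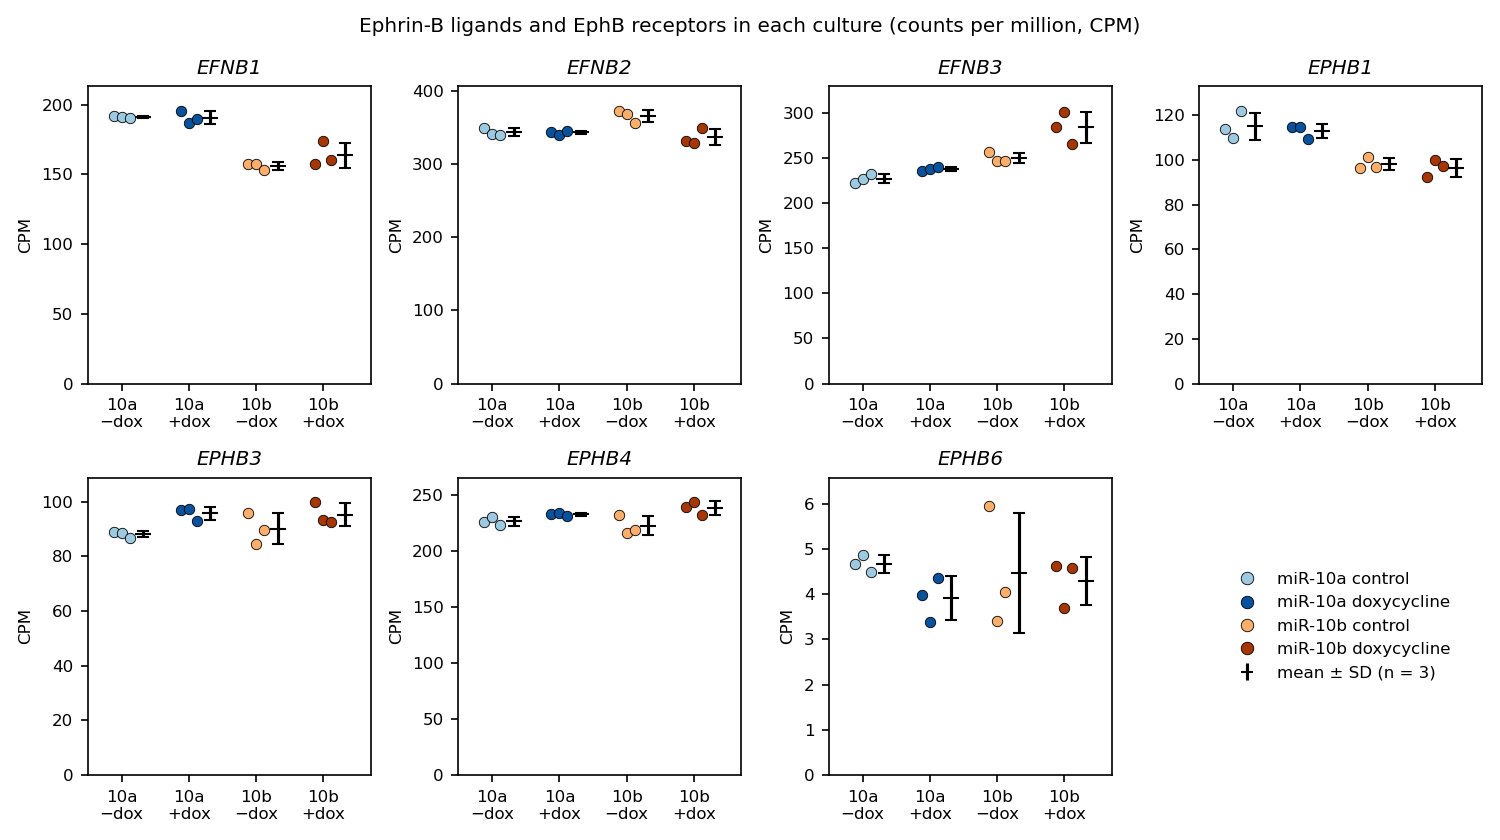
Counts scaled to the sample's total (CPM, y axis, from 0) of the 7 measured genes in the 12 samples, in 1 panel per gene, with points for samples and bars for the mean ± SD of 3 samples. EFNB3 is highest in the miR-10b doxycycline group at 265.8 to 300.9 CPM, and EFNB1 and EPHB1 are lower in both miR-10b groups than in both miR-10a groups.

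Among the receptors, EPHB3, which with EPHB2 is known for positioning cells in the intestinal crypt and for formation of forebrain commissures, was at 97.1, 97.3 and 93.1 CPM with miR-10a and doxycycline and at 89.0, 88.7 and 86.9 CPM in the controls. With miR-10b it was at 100.04, 93.3 and 92.5 CPM with doxycycline and at 95.9, 84.6 and 89.8 CPM without. The miR-10a groups were apart and the miR-10b groups overlapped. Neither difference passed the test by itself. It was 0.12 (SE 0.05, adjusted p = 0.289) for the miR-10a vector and 0.08 (SE 0.05, adjusted p = 0.258) for the miR-10b vector.

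Averaged over both vectors EPHB3 rose by 0.10 (SE 0.03, adjusted p = 0.037). This call was lost under TMM factors (0.09, adjusted p = 0.073), under DESeq2 (0.09, adjusted p = 0.131) and without any of 8 libraries left out singly, with adjusted p from 0.052 without miR-10a control replicate 2 to 0.136 without miR-10b control replicate 2. The other 6 of these libraries were miR-10a doxycycline replicates 1 (0.087) and 2 (0.081), miR-10a control replicates 1 (0.062) and 3 (0.088), miR-10b doxycycline replicate 1 (0.122) and miR-10b control replicate 3 (0.067). The direction was the same in all 18 alternatives, with values from 0.08 to 0.12.

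EPHB4, the receptor that prefers ephrin-B2 and is known from veins, was at 239.4, 244.4 and 232.3 CPM with miR-10b and doxycycline and at 232.5, 216.6 and 219.3 CPM in the controls. Only control replicate 1 reached the doxycycline samples. The difference of 0.10 (SE 0.04, 95% interval 0.03 to 0.17) narrowly missed the threshold (adjusted p = 0.051). It passed in 4 of 19 alternatives: with only genes of a mean above 50 counts (0.038), with the replicate block (0.045), without doxycycline replicate 3 (0.03) and without control replicate 1 (0.019). With miR-10a EPHB4 was at 233.4, 233.8 and 231.7 CPM with doxycycline and at 226.0, 230.8 and 223.3 CPM without. These groups did not overlap, but the difference was only 0.04 (SE 0.04, adjusted p = 0.761). Averaged over both vectors the difference was 0.07 (SE 0.03, adjusted p = 0.061), and it passed in 3 of 18 alternatives, among them the fits without miR-10b doxycycline replicate 3 (0.033) and without miR-10b control replicate 1 (0.025).

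EPHB1, a receptor known for the guidance of retinal axons that do not cross the midline, gave a difference of -0.03 (95% interval -0.12 to 0.06) with each vector. EPHB6 was at 4.66, 4.87 and 4.49 CPM in the miR-10a controls and at 3.98, 3.39 and 4.36 CPM with doxycycline. The groups did not overlap, yet at 41 to 75 counts the interval ran from -0.63 to 0.10 around a difference of -0.27 (adjusted p = 0.633). With miR-10b the EPHB6 interval ran from -0.41 to 0.31.

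The counts of members were read against the shares over all tested genes. With miR-10a 0 of 7 members passed in edgeR and in DESeq2, where 1.21% of all tested genes passed in edgeR, and 1 of 7, EPHB3, had an unadjusted p under 0.05. With miR-10b 2 of 7 passed, where 15.3% of all tested genes did. Of these 1 was higher, where 8.18% of all genes were, and 1 lower, where 7.15% were. On the average of both vectors 2 of 7 passed, where 13.9% did, and both were higher, where 7.67% were. For the difference between the effects 0 of 7 passed in edgeR and in DESeq2, where 1.96% of all genes passed in edgeR, and 2 of 7, EFNB2 and EFNB3, had an unadjusted p under 0.05. With miR-10a the doxycycline and control samples did not overlap for 4 of 7 members, where this held for 18.2% of all tested genes. Of the members 3 were higher, where 10.5% of all genes were, and 1 lower, where 7.75% were. With miR-10b they did not overlap for 2 of 7, where this held for 28.7%. With miR-10a the 7 members had a median log2 difference of -0.0026 and all tested genes 0.01, and with miR-10b the medians were 0.07 and 0.02. These counts cover the members that reached the count limit. The comparisons with the average and with the difference use the same samples as those of each vector.

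**Figure D4:**
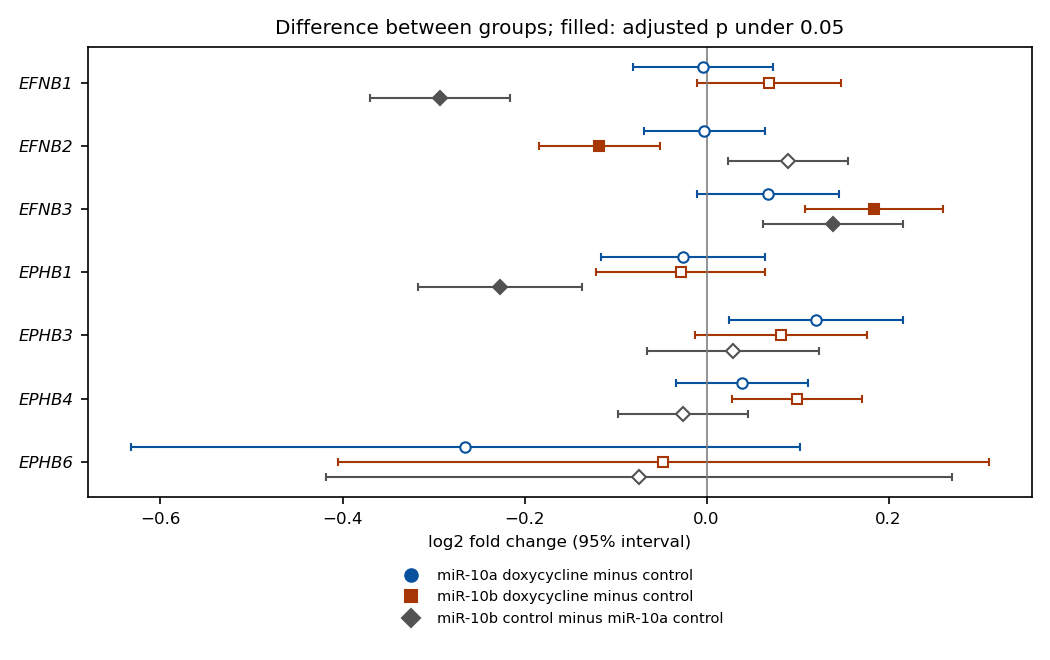
Difference between groups on the log2 scale (x axis) with its 95% interval for the 7 measured genes in 3 comparisons, filled where the adjusted p was under 0.05. Among the doxycycline effects only EFNB2 (-0.12) and EFNB3 (0.18) with miR-10b are filled, while EFNB1 (-0.29), EPHB1 (-0.23) and EFNB3 (0.14) are filled between the controls.

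In the miR-10b doxycycline group other cell features moved beside EFNB3 and EFNB2. The summed level of 8 neuron markers was between 504.2 and 552.6 CPM there and between 425.3 and 448.6 CPM in its controls. Of the 5 tested only MAP2, a protein of dendrite microtubules, rose. Most of the sum was MAP2 itself, at 434.4 ± 20.9 CPM with doxycycline and 356.7 ± 12.1 CPM in the controls (SD, n = 3 per group). The sum and the MAP2 call are therefore not separate results, and a rise of neuron markers as a set was not shown. With miR-10a the same sum was between 458.3 and 461.6 CPM with doxycycline and between 425.9 and 445.0 CPM without, and none of the 5 passed in edgeR. Averaged over both vectors 2 of the 5, MAP2 and NHLH1, passed as higher, where 7.67% of all tested genes did, and none passed as lower. Of 8 tested progenitor markers, HES5, NES and SOX3 fell and MSI1 rose with miR-10b. Of 6 tested floor plate markers only CORIN, a surface protein of floor plate cells, passed: it fell from 21.8 ± 1.16 to 12.8 ± 0.820 CPM (SD, n = 3 per group), while the summed level of the 8 was between 1729.4 and 1825.6 CPM with doxycycline and between 1777.3 and 1805.5 CPM without. Of 5 tested mesenchymal markers, COL1A1 and COL3A1 fell, and the summed level of 6 was between 305.4 and 327.4 CPM with doxycycline and between 366.8 and 387.3 CPM without. The part of these shifts in the EFNB3 and EFNB2 results was not tested. In bulk samples fewer cells of a type and less RNA per cell cannot be told apart.

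Between the untreated cultures of the vectors, a pair of members differed by more than any doxycycline effect called among the B-class members. EFNB1 was at 157.6, 157.7 and 153.0 CPM in the miR-10b controls and at 192.2, 191.1 and 190.5 CPM in the miR-10a controls. EPHB1 was at 96.4, 101.3 and 96.8 CPM in the miR-10b controls and at 113.8, 109.7 and 121.6 CPM in the miR-10a controls. For both genes the groups were well apart, and the doxycycline samples of each vector lay near their own controls. EFNB1 was lower in the miR-10b controls by -0.29 (SE 0.04, adjusted p = 2.8e-07) and EPHB1 by -0.23 (SE 0.04, adjusted p = 0.00025), and both passed in all 19 alternatives.

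EFNB3 was higher in the miR-10b controls, by 0.14 (SE 0.04, adjusted p = 0.0087). That call was lost without miR-10a control replicate 1 (0.13, adjusted p = 0.061) and without miR-10b control replicate 1 (0.12, adjusted p = 0.062). EFNB2 was higher by 0.09 (SE 0.03, adjusted p = 0.062) and passed in 7 of 19 alternatives, among them TMM factors (0.043), DESeq2 (0.049) and the fit without replicate 2 of the miR-10b doxycycline group (0.023). EPHB3, EPHB4 and EPHB6 differed by 0.03, -0.03 and -0.07, none of which passed. In all 3 of 7 members passed, where 14.1% of all tested genes did. Of these 1 was higher, where 7.41% were, and 2 were lower, where 6.72% were, and for 4 of 7 the groups did not overlap, where this held for 30.1%.

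The controls were separately transduced cultures, so that vector and culture cannot be told apart. Markers moved with them: the floor plate genes CORIN, FOXA1, LMX1A and SHH were higher in the miR-10b controls, and the summed level of the 8 floor plate markers was between 1777.3 and 1805.5 CPM against 1231.8 to 1246.6 CPM in the miR-10a controls. Of 5 tested mesenchymal markers 4 were higher, with a summed level of 366.8 to 387.3 CPM against 159.3 to 159.9 CPM. The summed neuron markers, with 425.3 to 448.6 CPM against 425.9 to 445.0 CPM, overlapped, and none of 5 passed in edgeR. The part of floor plate and mesenchymal cells in the EFNB1, EPHB1 and EFNB3 values was not tested.

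Across the 12 samples, some pairs of members varied together or in opposite directions. On log2(CPM + 1), Pearson's r was 0.905 between EPHB1 and EFNB1, -0.75 between EPHB1 and EFNB3, 0.77 between EPHB3 and EPHB4 and -0.645 between EPHB4 and EFNB2. The 12 points fall into 4 groups and share libraries, so these values mix differences between groups with those between samples of a group. The genes most like EFNB3 among all tested genes were DENND2A (0.977), PBXIP1 (0.974) and HECTD3 (0.974). Those most like EFNB1 were LOC145845 (0.98), NCAN (0.976), a proteoglycan of the neural matrix, and SOX13 (0.971). Those most like EFNB2 were MAP1LC3B (0.915), KIAA1147 (0.906) and FADS1 (0.898). EPHB1 was most like DHX37 (0.962), C5orf34 (0.95) and APOA1BP (0.946), and EPHB3 most like SNX19 (0.897), KIRREL (0.874) and FLJ37453 (0.865).

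The genes through which the B class signals were taken as a list of 55 adaptors, exchange factors, kinases, phosphatases, proteases and scaffolds, of which 33 were tested. With miR-10a 0 of 33 passed in edgeR and in DESeq2, and 3 had an unadjusted p under 0.05. With miR-10b 7 of 33 passed, 4 higher and 3 lower, where 15.3% of all genes passed, and the median of the list was -0.03 against 0.02 over all genes. Guanine nucleotide exchange factors went both ways. TIAM1, which activates RAC1, fell from 95.4 ± 4.70 to 78.7 ± 1.25 CPM (SD, n = 3 per group), by 0.28 on the log2 scale (adjusted p = 2.9e-05). VAV3 fell by 0.24 (adjusted p = 0.036), and KALRN, known from dendritic spines, rose by 0.28 (adjusted p = 0.037). The kinase YES1, of the SRC family, fell by 0.22 (adjusted p = 0.00017). The Dishevelled proteins DVL3 and DVL2, which bind ephrin-B, rose by 0.17 (adjusted p = 0.00061) and 0.11 (adjusted p = 0.031), and the adhesion molecule NRCAM, at 3.26 ± 0.517 against 2.16 ± 0.134 CPM, rose by 0.59 (adjusted p = 0.049). TIAM1, YES1 and DVL3 passed in all 19 alternatives, VAV3 in 13, DVL2 in 12, KALRN in 10 and NRCAM in 3 of 17. Without replicate 2 of the miR-10b doxycycline group VAV3 (-0.21, adjusted p = 0.114), DVL2 (0.08, adjusted p = 0.134) and KALRN (0.26, adjusted p = 0.108) were lost, and NRCAM was lost without replicate 1 of that group (0.53, adjusted p = 0.149).

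Averaged over both vectors 5 of the 33 passed, where 13.9% of all genes did, with TIAM1, YES1 and VAV3 lower and DVL3 and KALRN higher, of which VAV3 passed in 6 and KALRN in 5 of 18 alternatives. Between the controls 4 of 33 passed, where 14.1% of all genes did: TIAM1 (-0.40) and the ephrin-B-binding scaffold GRIP2 (-0.55) were lower in the miR-10b controls, and VAV3 (0.52) and the protease MMP9 (1.34) were higher. MMP9 was low throughout, at 2.08 ± 0.239 against 0.801 ± 0.348 CPM.

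The A class of Eph receptors and ephrins, 14 genes of which 10 were tested, was taken for comparison. With miR-10a 0 of 10 passed in edgeR and in DESeq2, and 1 had an unadjusted p under 0.05. With miR-10b 2 of 10 passed, where 15.3% of all genes did, both receptors and both lower, where 7.15% of all genes were. EPHA2 fell from 114.0 ± 3.92 to 89.7 ± 2.49 CPM (SD, n = 3 per group), by 0.35 on the log2 scale (adjusted p = 2.7e-07), and EPHA4, known for the guidance of motor axons, fell from 361.0 ± 6.11 to 325.6 ± 7.87 CPM, by 0.15 (adjusted p = 0.00095). Both passed in all 19 alternatives. On the average 3 of 10 passed, where 13.9% of all genes did: EPHA2 and EPHA4 fell and the ligand EFNA3 rose, by 0.19 (adjusted p = 0.015), a call lost under DESeq2 (0.17, adjusted p = 0.057), without miR-10a doxycycline replicate 3 (0.15, adjusted p = 0.072) and without miR-10b control replicate 3 (0.17, adjusted p = 0.051). Between the controls 3 of 10 passed, where 14.1% of all genes did: EFNA5 (-0.30) and EPHA4 (-0.21) were lower with miR-10b and EPHA3 (0.16) was higher, the last in 15 of 19 alternatives. It was lost without control replicate 2 or 3 of either vector, with adjusted p from 0.059 to 0.093.

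The 3′UTRs of 3 of these genes are shown beside those of the B class as examples of the longer seed matches that no measured EphB or ephrin-B gene held. They were picked after their values were seen, and all 3 fell with miR-10b, so their matches are no evidence that sites and changes go together. Of the other listed genes called with miR-10b, DVL3, which rose, also holds a 7mer-m8. YES1, which fell, holds only a 6mer, and VAV3, which fell, holds no match. DVL2 and KALRN, which rose, hold a 6mer each, and NRCAM, which rose, holds none. Listed genes without a call with miR-10b also held 7mers, among them CDC42 and ITSN1 with 2 7mer-m8 matches each. Capitals mark an 8mer in EPHA2 and TIAM1 and a 7mer-m8 in EPHA4, whose 3′UTR also holds 2 6mers.
EPHA2 (chr1:16451320-16451327, minus strand): gcgccaagtaaACAGGGTAcctcaagcccc
TIAM1 (chr21:32491516-32491523, minus strand): atgccaacgaaACAGGGTAaacatgctcaa
EPHA4 (chr2:222283697-222283703, minus strand): attacattctgACAGGGTgtgtggcattg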

How the data were processed

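The authors mapped reads to hg19 and deposited, per sample, raw counts per RefSeq transcript. The submitters' processing notes name STAR, Subread and featureCounts, with no version. Labels and methods name different RNA and library kits. Repeated rows (3698 with the same counts) were dropped, and the transcript with the highest mean count stood for each gene. Tests on the counts used edgeR 4.0.16 under R 4.3.3 (quasi-likelihood, total count as library size, 4 group means in 1 fit, Benjamini-Hochberg over 11451 genes with a mean above 10 counts, threshold 0.05). RPKM and CPM were computed from the counts. Code was tested on simulated data. Alternatives were TMM factors, DESeq2 1.42.0, other count limits, summed transcripts, the replicate number as a block, the compared groups alone and each sample left out. Named were all 8 members, listed genes past the threshold (at most 8 per comparison) and the 3 genes most like each of 5 members. A few marker and sequence results are not reported here. Members and lists were chosen with earlier results of these data known.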

Additional observations from a re-analysis of the deposited data

Results flagged for a closer look

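The effects of the vectors differed by the test of the difference itself for 2 listed genes, neither of them a B-class member. EPHA2 was at 118.9 ± 5.48 CPM with miR-10a and doxycycline and 122.6 ± 2.29 CPM in the controls (SD, n = 3 per group), a difference of -0.04 on the log2 scale, against -0.35 with miR-10b. The effect with miR-10b was lower by -0.30 (SE 0.06, adjusted p = 0.003, edgeR), and 1.96% of all tested genes passed this test. YES1 was at 218.8 ± 3.88 CPM with miR-10a and doxycycline and 219.7 ± 7.16 CPM in the controls, and at 191.5 ± 15.7 CPM against 223.6 ± 2.25 CPM with miR-10b. The difference of the effects was -0.22 (SE 0.06, adjusted p = 0.042, edgeR). It was lost in 10 of 12 fits with a sample left out, all but those without miR-10a control replicate 3 or miR-10b doxycycline replicate 3, with adjusted p from 0.061 to 0.138, whereas EPHA2 passed in all 18 alternatives. Groups of 3 samples were too small for a test of single outlying samples.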

How the results depend on the processing

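Of the 7 calls on members, EFNB3 with miR-10b and on average, and EFNB1 and EPHB1 between the controls passed under every alternative, while EFNB2 with miR-10b, EPHB3 on average and EFNB3 between the controls did not. With each sample left out in turn, the number of members called ran from 1 to 3 with miR-10b and from 1 to 4 on average, and the number of listed genes called from 5 (without miR-10b control replicate 1) to 9 with miR-10b and from 1 to 2 for the difference of the effects. Without a sample the sign turned only in differences that were not called: EPHB1 ran from -0.06 to 0.016 with miR-10a, from -0.054 to 0.003 with miR-10b and from -0.044 to 0.032 for the difference of the effects. EFNB1 ran from -0.022 to 0.011 and EFNB2 from -0.01 to 0.01 with miR-10a. EPHB6 ran from -0.212 to 0.205 with miR-10b and from -0.327 to 0.09 between the controls, and EPHB3 from -0.082 to 0.008 for the difference and from -0.017 to 0.073 between the controls. The cause was not tested.

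Replicate numbers did not pair the samples (r of same-numbered samples between -0.032 and 0.005 within a vector). With the replicate block the members called were 0, 3, 2, 0 and 3 in the 5 comparisons, and EPHB4 with miR-10b was the added call. Over all genes, 139 were called with miR-10a, 275 in a fit of its groups alone and from 75 to 268 with a sample left out, and 224 for the difference of the effects, 343 without the count limit and from 140 to 339 with a sample left out. The share of calls that were higher was 38.8% with miR-10a (31.3% under TMM factors, 27.9% under DESeq2), 53.4% with miR-10b (44.3% and 38.1%), 55.2% on average (43.8% and 38.4%) and 29.5% for the difference (22.7% and 11.8%). Depth limits EPHB6, and shared reads leave EPHB2 unmeasured.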
